A study of Mus musculus with 91 samples.

Results

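Between 11.5 and 12.5 days post coitum (E11.5 and E12.5), the XX mouse gonad begins to develop as an ovary, and the change in gene expression over that day was measured in cells sorted for aSma-EYFP, a yellow fluorescent protein transgene driven by the promoter of Acta2, the gene of smooth muscle actin. The 3 E11.5 arrays (titled 11SmaaF1 to 11SmaaF3) were set against the 3 E12.5 arrays (12SmaaF1 to 12SmaaF3), 6 of the 91 arrays of the series. Every transcript cluster, the set of probes that covers a gene's exons, was kept where it named 1 gene and reached a log2 intensity of 6 on at least 2 of the 3 arrays of either group. This gave 15141 of the 21789 single-gene clusters, standing for 13769 genes.

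All 6 arrays held RNA of XX embryos that carried Tg(Acta2-EYFP)Jll, labelled FVB, from a mixed FVB/CD-1 line in which homozygous males and females were mated. Gonads of 1 or more litters were pooled, trypsinized and sorted, so each array is a pool and not an embryo. The labels name the E11.5 cells mesenchymal and the E12.5 cells vascular associated mesenchymal stromal cells. The study gives a limit of the reporter as a model: early in development it marks supporting cells beside interstitial or stromal ones, possibly through leaky expression of the transgene. Its evidence was the RNA of Sry, a Y-chromosome gene, and SRY and SOX9 protein in aSma-EYFP cells at E11.5. The study left the aSma-EYFP arrays out of its main analysis for this reason. For comparison, the same step from E11.5 to E12.5 was measured in XY aSma-EYFP cells and in XX Sry-EGFP cells (supporting cells; a transgene driven by the Sry promoter, in progeny of CD-1 and C57BL/6J), each with 3 arrays a stage. These steps share no array with the XX aSma-EYFP step.

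The gonad forms from a ridge of mesenchyme and coelomic epithelium whose cells are at first alike in XX and XY embryos. In an XX gonad, WNT and R-spondin signals lead the supporting cells to become pre-granulosa cells, which make follistatin (Fst), a secreted binder of activin. In an XY gonad, Sry switches on Sox9 in the supporting cells, which become Sertoli cells and send hedgehog and other signals to the interstitium, where steroid-making Leydig cells arise. The XX stroma lies between these structures and is less well defined. Since the samples are bulk RNA, fewer cells of a type and less RNA per cell cannot be told apart in what follows.

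The sorted cells carried transcripts used as markers of stromal and of supporting cells at both stages. The study found Irx3 and Wnt4, used here as pre-granulosa markers, at like levels in XX stromal and XX supporting cells. These genes therefore do not tell such cells apart. All 4 stromal markers measured (Nr2f2, Pdgfra, Tcf21 and Dcn) and all 7 pre-granulosa markers reached the limit of 6. Reaching it alone is weak evidence of a transcript. The cluster of Sry, a Y-chromosome gene, stood at 7.73 and 7.75 in these XX cells. Some markers that reached the limit, such as Foxl2 (6.21 and 6.34), lay below that. Pdgfra, the PDGF-A receptor of mesenchyme, stood at 10.21 ± 0.17 at E11.5 and 10.45 ± 0.13 at E12.5 (mean ± SD of log2 intensity, n = 3, as throughout). Some markers of other cells reached it too. Of 4 germ cell markers only Dppa3 reached the limit, and Pou5f1 stood at 5.36 and 5.42 at the 2 stages against 10.77 in sorted XX germ cells. Of 5 endothelial markers 4 reached it: Cdh5, the endothelial cadherin, stood at 6.23 and 6.66 against 12.02 in sorted XX endothelium, and Kdr, a VEGF receptor, at 7.53 and 7.75. Of 5 Sertoli markers Sox9 (8.93 and 8.30) and Mro (6.83 and 6.77) reached it, and Amh, Dhh and Cst9 lay below. Acta2 itself, the gene of the reporter's promoter, read 7.32, 7.83 and 8.07 on the E11.5 arrays and 8.33, 9.46 and 8.35 on the E12.5 arrays, and these arrays did not overlap but differed too widely to pass (log2 difference 0.97, SE 0.38, adjusted p = 0.23).

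Across the day, 333 of the 13769 genes changed at an adjusted p below 0.05 in limma, which is 2.42% of the genes tested. Of these, 136 rose (0.988%) and 197 fell (1.43%), with folds from 1.19 to 6.18, and 36 in each direction moved over 2-fold. The 3 arrays of a stage did not overlap with the other 3 for 324 of the 333 genes, as against 18.9% of all genes tested. This count uses the same arrays as the calls, so it is no separate support for them. The median difference over all genes was -0.011 on the log2 scale. Replicate 3 of E11.5 stood farther from the E12.5 arrays than the other E11.5 arrays did, and without it 87 genes rose and 97 fell, of which 83 and 90 were among the 136 and 197. Without replicate 1 of E11.5 131 genes fell, and without replicate 2 of E12.5 116 fell. With the variance estimated from the 18 aSma-EYFP arrays alone, 261 genes rose and 262 fell.

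**Figure D1:**
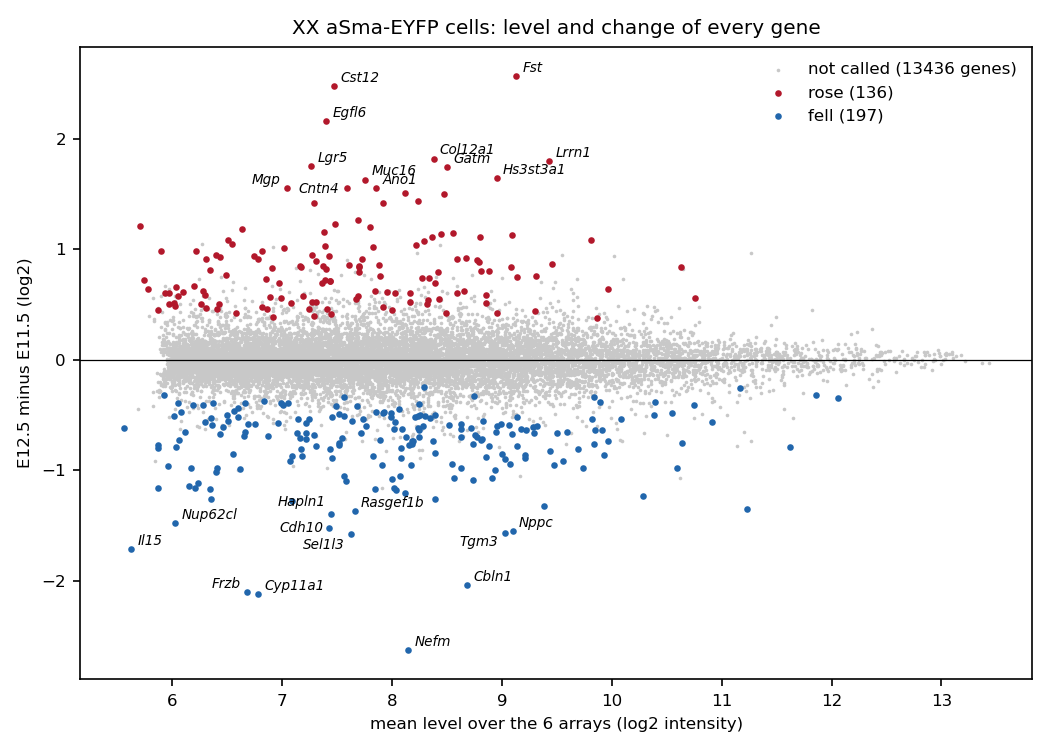
Each of the 13769 genes by its mean log2 intensity over the 6 XX aSma-EYFP arrays (x) and its E12.5 minus E11.5 difference in log2 units (y). Red marks the 136 genes that rose and blue the 197 that fell at an adjusted p below 0.05; the 12 largest changes in each direction among genes whose arrays did not overlap are named, from Fst at 2.57 to Nefm at -2.63.

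The widest rise was that of Fst, a pre-granulosa gene, and Irx3 and Gng13 of the same list also rose. Fst, the activin binder, read 8.18, 7.72 and 7.65 on the E11.5 arrays and 10.52, 10.49 and 10.24 on the E12.5 arrays (log2 difference 2.57, SE 0.21, adjusted p = 1.9e-14), a 5.92-fold rise. Irx3, a homeobox factor, read 7.18, 7.01 and 6.99 on the E11.5 arrays and 8.31, 8.03 and 8.62 on the E12.5 arrays (log2 difference 1.26, SE 0.17, adjusted p = 3.6e-07). The study found Irx3 at like levels in XX stromal and XX supporting cells, although it is on the pre-granulosa list here. Gng13, a G protein subunit, read 7.38, 7.40 and 7.30 on the E11.5 arrays and 9.03, 8.44 and 9.13 on the E12.5 arrays (log2 difference 1.51, SE 0.28, adjusted p = 0.00022). For each of these 3 genes every E12.5 array lay above every E11.5 array by more than the replicates of a stage differed. In the list of 18 measured pre-granulosa genes, 4 rose (Lhx2, with a difference of 0.39 and adjusted p = 0.037, was the other) and none fell, against 0.988% of all genes that rose. The median difference of the list was 0.28, and the mean level of its members ran from 8.20 to 8.32 over the E11.5 arrays and from 8.60 to 8.77 over the E12.5 arrays. Lhx2 was not called without replicate 3 of E11.5 (adjusted p = 0.15), and the other 3 were.

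Most of the best known ovarian regulators did not pass. Wnt4, the ligand required for ovary formation, read 9.08, 8.73 and 8.71 on the E11.5 arrays and 8.98, 8.86 and 8.74 on the E12.5 arrays, 2 overlapping groups (difference 0.02, adjusted p = 1). Rspo1, which enhances WNT signals, read 9.29, 9.61 and 9.63 on the E11.5 arrays and 9.73, 9.75 and 9.86 on the E12.5 arrays (difference 0.27, adjusted p = 0.68). The cluster of Foxl2, the forkhead factor that maintains the ovary, stood near the limit at both stages (6.21 ± 0.13 and 6.34 ± 0.12) and stood as low in XX Sry-EGFP supporting cells at E12.5 (6.26 ± 0.04). Its antisense neighbour Foxl2os, chosen here after its values were seen, read 8.05, 8.05 and 7.53 on the E11.5 arrays and 9.43, 8.69 and 8.93 on the E12.5 arrays (log2 difference 1.14, SE 0.17, adjusted p = 2.9e-06). The platform's annotation gives both genes a cluster, and which strand's RNA each one measured was not tested.

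Egfl6, Lgr5 and Col12a1 were also among the 12 largest rises. Egfl6, a secreted EGF-like matrix protein, read 6.73, 6.29 and 5.95 on the E11.5 arrays and 8.69, 8.19 and 8.57 on the E12.5 arrays (log2 difference 2.16, SE 0.24, adjusted p = 1.9e-09). Lgr5, a receptor for R-spondins, read 6.44, 6.54 and 6.20 on the E11.5 arrays and 7.77, 8.25 and 8.41 on the E12.5 arrays (log2 difference 1.75, SE 0.29, adjusted p = 3.3e-05). Col12a1, the chain of collagen XII, read 7.80, 7.50 and 7.10 on the E11.5 arrays and 9.09, 9.61 and 9.16 on the E12.5 arrays (log2 difference 1.82, SE 0.20, adjusted p = 1.1e-09). All 3 were higher on every E12.5 array, which the rule that named them required. Egfl6 and Lgr5 stood close to the limit at E11.5, so that their folds of 4.47 and 3.36 start from low intensities. Col12a1 was 1 of 30 collagens to rise, and none fell, against 0.988% of all genes that rose and 1.43% that fell. With the replicate number as a block Col8a1 (difference 0.34) rose too. Of 37 other matrix proteins, Lama4 (laminin alpha 4, difference 0.84) and Thbs2 (thrombospondin 2, 0.59) rose and Hapln1, which links hyaluronan to proteoglycans, fell by 1.40. Thbs2 did not pass without replicate 3 of E11.5 (adjusted p = 0.092). Among 23 matrix proteases and inhibitors Adamts19 rose (0.83, adjusted p = 0.0021) and none fell.

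The other leading rises were in genes of more varied roles. Cst12, a cystatin, read 6.18, 6.17 and 6.35 on the E11.5 arrays and 8.59, 8.32 and 9.25 on the E12.5 arrays (log2 difference 2.48, SE 0.39, adjusted p = 1.3e-05). Lrrn1, a leucine-rich repeat membrane protein, moved from 8.53 ± 0.27 to 10.33 ± 0.03, Ano1, a calcium-activated chloride channel, from 7.08 ± 0.09 to 8.63 ± 0.03, and Cntn4, a contactin of neural adhesion, from 6.82 ± 0.15 to 8.37 ± 0.12. These 3 had small spreads at E12.5, and each rose about 3-fold (folds 3.49, 2.93 and 2.92). Gatm, an enzyme of creatine synthesis, rose 3.35-fold, Hs3st3a1, which sulfates heparan sulfate, 3.11-fold, Mgp, a calcification inhibitor of matrix, 2.93-fold, and Muc16, a mucin of mesothelium, 3.10-fold. Muc16 and Mgp spread most at E12.5 (SD 0.58 and 0.58), and without replicate 3 of E11.5 Muc16 had an adjusted p of 0.068.

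**Figure D2:**
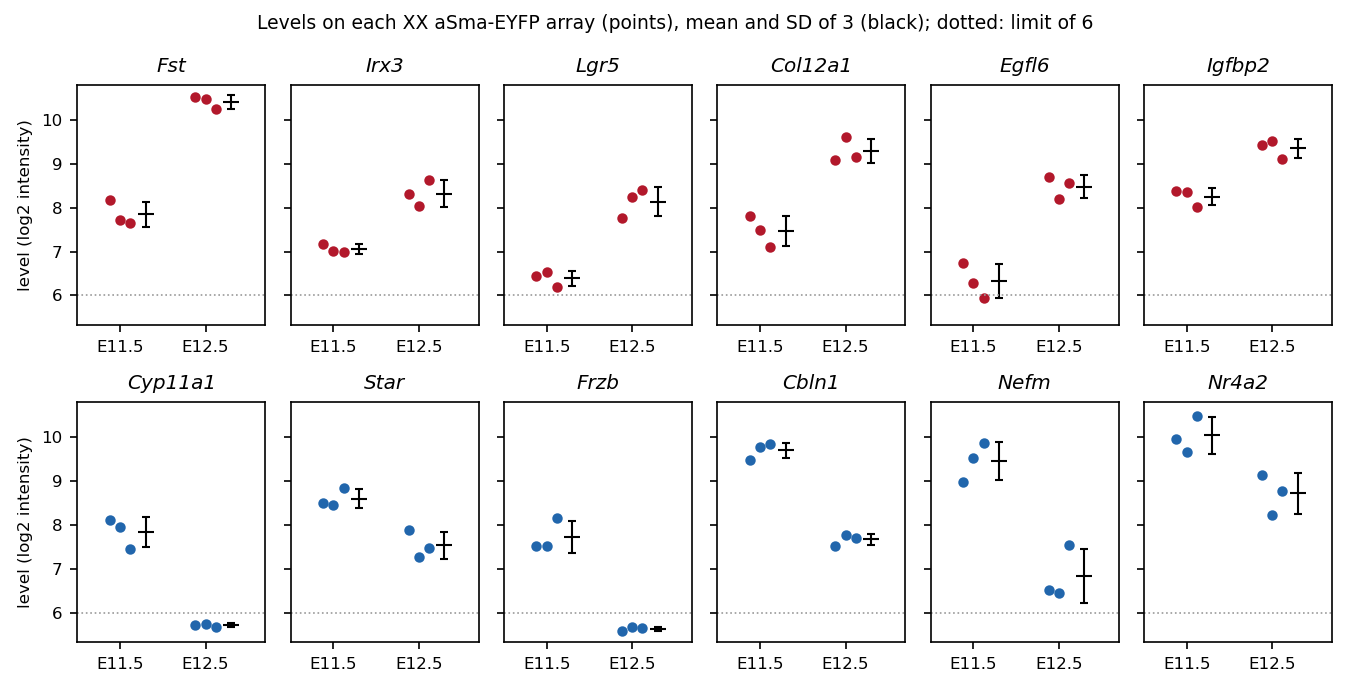
Log2 intensity of 12 genes on each of the 6 XX aSma-EYFP arrays (points), with the mean and SD of the 3 arrays of a stage in black and the limit of 6 dotted. In every panel the 3 E12.5 points lie wholly above (red) or wholly below (blue) the 3 E11.5 points; Cyp11a1 and Frzb end below the limit.

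Contractile genes moved in small steps and in both directions. Myh11, the smooth muscle myosin heavy chain, read 8.15, 8.04 and 7.73 on the E11.5 arrays and 8.71, 8.93 and 8.49 on the E12.5 arrays (log2 difference 0.74, SE 0.12, adjusted p = 1.3e-05). Myocd, the coactivator that drives smooth muscle genes, rose by 0.51 from 5.76 ± 0.15, below the limit, and Mylk, the myosin light chain kinase, rose by 0.52, while Csrp1 fell by 0.78. Of 21 contractile genes, 3 rose and 1 fell, against 0.988% and 1.43% of all genes. The list median was -0.05, and neither Tagln nor Cnn1 was among the called genes. Mylk did not pass without replicate 3 of E11.5 (adjusted p = 0.21) or with the 18 aSma-EYFP arrays alone (0.084). Of 17 stromal genes Vcam1, an adhesion molecule, rose (0.66, adjusted p = 0.021) and none fell, and Vcam1 did not pass without that replicate (adjusted p = 0.057). With the 18 aSma-EYFP arrays alone no stromal gene rose and 3 fell (Tcf21, Meis1 and Meis2), and with the 6 arrays alone none rose and Meis2 fell.

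Cyp11a1, Star and Mc2r of the steroid list fell. Cyp11a1, the enzyme that makes pregnenolone from cholesterol, read 8.12, 7.96 and 7.44 on the E11.5 arrays and 5.71, 5.75 and 5.68 on the E12.5 arrays (log2 difference -2.12, SE 0.28, adjusted p = 1.6e-07), and every E12.5 array lay below the limit of 6. Star, which carries cholesterol into mitochondria, read 8.49, 8.45 and 8.84 on the E11.5 arrays and 7.88, 7.28 and 7.47 on the E12.5 arrays (log2 difference -1.05, SE 0.22, adjusted p = 0.0018). Mc2r, the ACTH receptor, read 6.54, 6.72 and 7.15 on the E11.5 arrays and 5.49, 5.58 and 5.98 on the E12.5 arrays (log2 difference -1.12, SE 0.23, adjusted p = 0.0012). All 3 stayed called when any array was left out. Of 9 measured steroid genes 3 fell, 1 rose and 5 did not pass, with a list median of -0.11, against 1.43% of all genes that fell. The gene that rose, Akr1c14, encodes a hydroxysteroid dehydrogenase and moved from 5.11 ± 0.10 to 6.31 ± 0.13 (difference 1.21, adjusted p = 4.6e-09). Of 3 adrenal cortex markers, Cyp11b1 and Cyp21a1 lay below the limit at both stages (5.28 to 5.42) and Mc2r was the only 1 that reached it; the part of adrenal-like cells in these falls was not tested. Of 19 cholesterol synthesis genes 1 fell, Idi1 (-0.80, adjusted p = 0.018), and 16 had a negative difference, with a list median of -0.16. Idi1 lost its call under 4 of the alternatives tried.

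The largest falls lay outside the fixed lists for the most part. Nefm, the medium neurofilament chain, read 8.99, 9.53 and 9.87 on the E11.5 arrays and 6.51, 6.45 and 7.55 on the E12.5 arrays (log2 difference -2.63, SE 0.37, adjusted p = 7.2e-07), 6.18-fold lower and the widest change of all, with replicate 3 above the others at both stages. Frzb, a secreted WNT antagonist, read 7.51, 7.51 and 8.15 on the E11.5 arrays and 5.57, 5.67 and 5.65 on the E12.5 arrays (log2 difference -2.10, SE 0.23, adjusted p = 5.5e-10). Cbln1, a secreted protein related to complement C1q, read 9.49, 9.78 and 9.84 on the E11.5 arrays and 7.52, 7.77 and 7.71 on the E12.5 arrays (log2 difference -2.04, SE 0.23, adjusted p = 2.7e-09). For none of the 3 genes did the stages overlap, which the rule that named them required. Nppc, the C-type natriuretic peptide precursor, fell from 9.88 ± 0.71 to 8.32 ± 0.18, Tgm3, a transglutaminase, from 9.81 ± 0.27 to 8.24 ± 0.23, Sel1l3 from 8.42 ± 0.28 to 6.83 ± 0.10, and Il15, an interleukin, from 6.48 ± 0.12 to 4.78 ± 0.16. Cdh10, a cadherin, fell by 1.52, Nup62cl by 1.48 and Rasgef1b, a Ras exchange factor, by 1.37. In the neural crest and nerve list none of 12 genes rose or fell (unadjusted p below 0.05 in limma for none). The mean level of its members stayed between 6.59 and 6.71 on all 6 arrays, within the range of the array medians (6.555 to 6.811). Members that low have little room to fall, and the part of nerve cells in the fall of Nefm was not tested.

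Immediate early genes, which cells switch on within minutes of a stimulus and also during dissociation, held the most falls of any list. Of 31 measured, 9 fell and none rose, against 1.43% of all genes that fell, and 29 had a negative difference, with a list median of -0.43. Nr4a2, an orphan nuclear receptor of this class, read 9.96, 9.66 and 10.49 on the E11.5 arrays and 9.15, 8.22 and 8.78 on the E12.5 arrays (log2 difference -1.32, SE 0.26, adjusted p = 0.00063). The others that fell were Nr4a1, Atf3, Ier2, Fosl2, Ccn1, Ccn2, Gadd45b and Myc, by 0.61 to 1.23, with Atf3 just inside the threshold. Fos, Egr1 and Jun, the best known of the class, did not pass (differences -0.23, -0.32 and -0.74). The mean level of the 31 genes was 9.40, 9.23 and 9.62 on the E11.5 arrays, highest on replicate 3, and 9.04, 8.81 and 9.02 on the E12.5 arrays. Without replicate 3 of E11.5 the list median was -0.37 and 1 of the 31 passed. In XY aSma-EYFP cells the list stood at 9.41 to 9.49 at E11.5 and 8.56 to 8.66 at E12.5 and in XX Sry-EGFP cells at 8.07 to 8.48 and 8.46 to 8.50. The part of tissue handling in this fall was not tested.

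Of 20 nuclear receptor genes 4 fell and none rose, against 1.43% of all genes that fell. They were Nr2f1 (described with the ridge factors) and the 3 Nr4a receptors. In limma Nr4a1 fell by 0.98 (adjusted p = 0.03), Nr4a2 by 1.32 and Nr4a3 by 0.79 (adjusted p = 0.0019). Nr4a3 stood at 7.30 on replicate 3 of E11.5 against 6.03 and 5.98 on the other E11.5 arrays, and without that array Nr4a1 and Nr4a3 each had an adjusted p of 0.38. With the 18 aSma-EYFP arrays alone Nr4a1 had an adjusted p of 0.054 and Nr4a3 of 0.16. The 3 Nr4a genes are induced through cyclic AMP and the factor CREB, whose core binding letters are TGACG. Their promoters are shown because all 3 were called lower in the main fit, as the 250 bases before the RefSeq start (build GRCm38.p6), 5′ to 3′ on the gene's strand, with TGACG and its reverse complement CGTCA in capitals. Nr4a1 lies at chr15:101266596-101266845, plus strand, Nr4a2 at chr2:57124004-57124253, minus strand and Nr4a3 at chr4:48045055-48045304, plus strand.
Nr4a1: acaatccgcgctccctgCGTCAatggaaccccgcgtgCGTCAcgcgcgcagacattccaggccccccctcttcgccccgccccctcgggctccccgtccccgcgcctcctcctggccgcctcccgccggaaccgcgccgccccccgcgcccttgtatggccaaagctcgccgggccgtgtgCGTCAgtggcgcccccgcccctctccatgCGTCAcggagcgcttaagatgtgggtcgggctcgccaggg
Nr4a2: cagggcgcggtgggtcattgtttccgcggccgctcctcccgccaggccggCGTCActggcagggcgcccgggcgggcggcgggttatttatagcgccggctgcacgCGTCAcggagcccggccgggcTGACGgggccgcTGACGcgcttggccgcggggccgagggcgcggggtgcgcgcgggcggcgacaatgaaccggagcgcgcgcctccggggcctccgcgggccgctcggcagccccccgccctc
Nr4a3: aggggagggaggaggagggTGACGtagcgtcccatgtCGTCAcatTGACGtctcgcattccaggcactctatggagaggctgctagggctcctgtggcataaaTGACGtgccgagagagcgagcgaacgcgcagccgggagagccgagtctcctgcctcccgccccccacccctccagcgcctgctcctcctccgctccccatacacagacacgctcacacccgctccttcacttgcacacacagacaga
Each of the 3 holds 4 copies. These letters, on either strand, were in 28.8% of the promoters of the 10936 step genes with an entry, in 34.4% of 154 genes that fell, in 9.52% of 105 that rose, and in 53.8% of 26 immediate early genes. The letters hold a CG pair, and the same promoters held a median of 16, 18, 12 and 20.5 CG pairs, so the shares and the base composition moved alike. A match in the window is not a bound site.

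**Figure D3:**
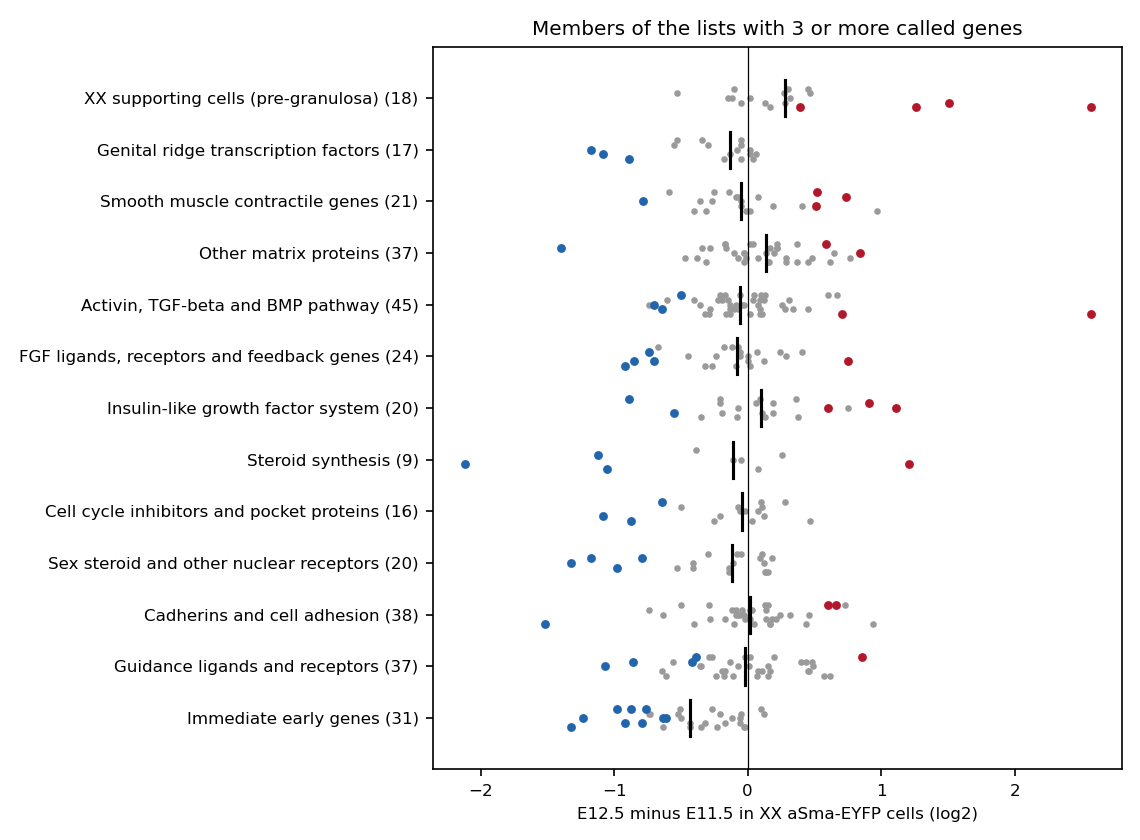
E12.5 minus E11.5 difference in log2 units of each measured member (points) of the 13 lists with 3 or more called genes in XX aSma-EYFP cells, with the number of members in brackets and the list median as a black bar. Red points rose and blue points fell at an adjusted p below 0.05, grey points did not pass; the pre-granulosa median lies at 0.28 and the immediate early median at -0.43.

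Of 24 FGF genes 4 fell and 1 rose, against 1.43% and 0.988% of all genes, with a list median of -0.08. The phosphatases Dusp4 (-0.92, adjusted p = 0.00048) and Dusp6 (-0.85, 0.048), the inhibitor Spry2 (-0.70, 0.026) and Flrt3 (-0.74, 0.008) fell. The receptor gene Fgfr2 read 8.94, 8.63 and 8.74 on the E11.5 arrays and 9.77, 9.34 and 9.43 on the E12.5 arrays and rose (log2 difference 0.75, SE 0.18, adjusted p = 0.0071). These are also genes that respond fast to stimuli: Dusp6 was highest on the same E11.5 replicate 3 as the immediate early list (9.49, 8.89 and 9.91), and without that array 1 of the 4 passed. The list's mean level ran from 8.02 to 8.08 at E11.5 and from 7.86 to 7.95 at E12.5.

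Other signalling lists held a few called members each, to be set against 0.988% of all genes that rose and 1.43% that fell. In the insulin-like growth factor system, Igfbp2, a binding protein, read 8.37, 8.35 and 8.01 on the E11.5 arrays and 9.43, 9.51 and 9.12 on the E12.5 arrays (log2 difference 1.11, SE 0.17, adjusted p = 3.7e-06), and Pappa2 and Stc1, a protease of binding proteins and an inhibitor of such proteases, rose by 0.60 and 0.91, while Stc2 and the insulin receptor substrate Irs2 fell (-0.89 and -0.55), 5 of 20 genes. In the hedgehog list of 16 genes, Ptch1, the receptor that is itself a target of the pathway, fell (log2 difference -0.89, SE 0.19, adjusted p = 0.0029), and its fellow target Gli1 had -0.26 (adjusted p = 0.62). In the activin, TGF-beta and BMP list of 45, Fst and Tgfb3 (0.71) rose and Bmp4 (-0.70), Ltbp1 (-0.64) and Smad7 (-0.50) fell. In the WNT list of 44, Lgr5 rose and Frzb fell, and Rspo3 (0.56) passed as well with the replicate number as a block and Wnt2b without replicate 3 of E11.5. Of 24 Notch genes 1 fell, the target Hey1 (-0.66), and of 18 retinoic acid genes none passed in limma, with 3 higher and 1 lower at an unadjusted p below 0.05. Without replicate 3 of E11.5, Bmp4 (adjusted p = 0.17), Ltbp1 (0.068), Hey1 (0.13) and Irs2 (0.21) did not pass. Tgfb3 lost its call under 4 of the alternatives tried.

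Of 17 genes of the ridge list 3 fell and none rose, against 1.43% of all genes that fell. Nr2f1, an orphan nuclear receptor of mesenchyme, read 8.37, 8.35 and 8.57 on the E11.5 arrays and 6.99, 7.51 and 7.28 on the E12.5 arrays (log2 difference -1.17, SE 0.19, adjusted p = 2.7e-05). Osr1, a factor of intermediate mesoderm, and Gadd45g, which acts upstream of Sry, also fell (-0.89 and -1.08). Wt1, Gata4, Nr5a1 and Lhx9, the core factors of the ridge, had differences of -0.18, -0.13, -0.05 and -0.05 and did not pass. Osr1 did not pass without replicate 3 of E11.5 (adjusted p = 0.15). With the 18 aSma-EYFP arrays alone 5 of the 17 fell, Tcf21 and Zfpm2 being the others. Gadd45g varied among E11.5 arrays (9.11, 7.62 and 8.90). Its stress-responsive relatives Gadd45a and Gadd45b fell as well (-0.64 and -0.87) but did not pass without replicate 3 of E11.5 (adjusted p = 0.34 and 0.092).

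Guidance genes changed in both directions, and their balance hung on the arrays in the fit. Of all genes, 0.988% rose and 1.43% fell. Robo1, a receptor for SLIT, read 10.22, 10.60 and 10.25 on the E11.5 arrays and 9.27, 9.42 and 9.81 on the E12.5 arrays (log2 difference -0.86, SE 0.16, adjusted p = 0.00024), and Sema3c, a secreted semaphorin, fell by 1.07, Sema4c by 0.42 and Sema3e by 0.39, while Sema5a rose (0.86), 5 of 37 guidance genes with a list median of -0.02. With the 18 aSma-EYFP arrays alone 7 guidance genes rose and 5 fell, and with the 6 arrays alone 5 rose and 4 fell. Cxcr4, the receptor for CXCL12, and Pdgfc, a PDGF ligand, fell (-0.90 and -0.81), 2 of 13 genes. Pdgfc lost its call under 4 of the alternatives tried. Of 38 adhesion genes Cdh6 (0.60) and Vcam1 rose and Cdh10 fell. Ptgs2, the inducible prostaglandin synthase, read 9.04, 8.66 and 9.62 on the E11.5 arrays and 8.05, 8.02 and 8.02 on the E12.5 arrays (log2 difference -1.07, SE 0.21, adjusted p = 0.00056), 1 of 12 prostaglandin genes; it is also an immediate early gene by its known behaviour and was highest on replicate 3. Sema4c (adjusted p = 0.13), Sema5a (0.073) and Cdh6 (0.13) did not pass without that replicate.

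Growth genes gave few calls, to be set against 0.988% of all genes that rose and 1.43% that fell. None of 39 mitosis genes and none of 40 ribosome biogenesis genes passed in limma in either direction, also at an unadjusted p below 0.05, and their medians were 0.01 and -0.02. Of 37 DNA replication genes 2 fell, and 32 had a negative difference. They were Orc1, a subunit of the origin recognition complex, which read 9.29, 8.94 and 9.12 on the E11.5 arrays and 8.14, 8.14 and 8.14 on the E12.5 arrays (log2 difference -0.98, SE 0.17, adjusted p = 0.00012), and Mcm10 (-0.42, adjusted p = 0.025; 0.29 without replicate 3 of E11.5). Ccnd2, cyclin D2, rose by 0.56 and Myc fell by 0.92 among 17 G1 genes. Ccnd2 lost its call under 5 of the alternatives tried. Myc had an adjusted p of 0.14 without replicate 3 of E11.5. Of 25 hypoxia and glycolysis genes Ankrd37 fell (-0.50, adjusted p = 0.085 without replicate 3 of E11.5), of 24 imprinted genes Nap1l5 fell (-0.85), and of 26 Hox genes none passed (1 higher and 3 lower at an unadjusted p below 0.05).

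Markers of other cells gave few calls, to be set against the same shares of all genes (0.988% and 1.43%). None of 13 germ cell, 18 endothelial, 10 leukocyte and 7 red blood cell genes passed in limma, and at an unadjusted p below 0.05 there were 3, 1, 0 and 0 higher and 0, 1, 1 and 0 lower. The germ cell list stood at 6.72 to 6.81 over the E11.5 arrays and 6.82 to 7.03 over the E12.5 arrays, and the endothelial list at 6.79 to 6.95 and 6.91 to 7.06. Of 20 mesonephric genes, Krt19, an epithelial keratin, rose (log2 difference 0.58, SE 0.13, adjusted p = 0.0038). Of 16 Sertoli genes Cbln4 fell (-0.75, adjusted p = 0.0033), and Sox9 read 9.07, 8.76 and 8.98 on the E11.5 arrays and 8.25, 8.35 and 8.29 on the E12.5 arrays (difference -0.64, adjusted p = 0.054), not overlapping but outside the threshold, and inside it at 0.02 with the 18 aSma-EYFP arrays alone.

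Whether the step differed between the sexes was asked with the XY aSma-EYFP cells, and a difference of steps can lie in a change in either sex. The steps of the 2 sexes differed for 186 of 13968 genes (1.33%): 108 rose more, or fell less, in XX (0.773%) and 78 in XY (0.558%). Of the 136 genes that rose in XX, 24 also rose in XY (17.6%, against 1.99% of all genes), and of the 197 that fell in XX, 109 also fell in XY (55.3%, against 3.01%). The difference itself was called for 45 of the 136, of which 44 rose more in XX, and for 18 of the 197, of which 15 fell more in XX; these counts use the same XX arrays as the calls. With the 12 compared arrays alone, 171 genes rose more in XX and 108 more in XY.

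Fst differed most among the risen genes. In XY aSma-EYFP cells it stood at 7.08 ± 0.05 at E11.5 and 6.70 ± 0.06 at E12.5, a step that was not called there (difference of steps 2.94, SE 0.29, adjusted p = 3.9e-11). Col12a1 stood at 7.14 ± 0.30 at E11.5 and 6.68 ± 0.03 at E12.5 (difference of steps 2.28, SE 0.28, adjusted p = 6.3e-08), and Egfl6, Lrrn1, Cst12, Lgr5, Cntn4, Irx3, Ano1, Igfbp2 and Myh11 also rose more in XX, by 0.70 to 2.23. The pre-granulosa list held 6 of 18 genes that rose more, or fell less, in XX and none in XY, against 0.773% and 0.558% of all genes. The 6 were Fst, Irx3, Bmp2, Runx1, Kitl and Sprr2d. For 4 of these the fall lay in XY: Bmp2, a BMP ligand, went from 8.64 ± 0.21 to 7.44 ± 0.46 there and Runx1 from 8.34 ± 0.15 to 6.90 ± 0.26, while in XX neither passed. Calb1 (calbindin) and Sry were of the same kind, with differences of steps of 2.70 and 3.40 and no change in XX; Sry stood at 7.73 ± 0.17 and 7.75 ± 0.19 in XX cells, which have no Y chromosome.

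In the other direction, Hsd17b3, which makes testosterone, had the largest difference of steps (-4.11, SE 0.42, adjusted p = 1.1e-10), from 6.07 to 9.81 in XY and from 5.64 to 5.27, below the limit, in XX. Defb19 and Enpep had -2.87 and -2.90. The hedgehog targets Hhip, Gli1 and Ptch1 had -2.50, -1.34 and -1.74, with Ptch1 at 9.96 ± 0.05 at E11.5 and 10.81 ± 0.15 at E12.5 in XY, so that the fall of Ptch1 in XX stood beside a rise in XY. Cbln1 showed the same opposition: it fell by 2.04 in XX and stood at 10.12 ± 0.13 at E11.5 and 11.50 ± 0.08 at E12.5 in XY (difference of steps -3.41, SE 0.33, adjusted p = 1.1e-11). In the Sertoli list Amh, Ptgds, Vnn1 and Hsd17b3, 4 of 20 genes, rose more in XY, against 0.558% of all genes.

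Several falls were not called different between the sexes. Nefm stood at 8.99 ± 1.29 at E11.5 and 6.23 ± 0.21 at E12.5 in XY (difference of steps 0.13, SE 0.52, adjusted p = 1), Cdh10 at 7.93 ± 0.26 at E11.5 and 6.22 ± 0.35 at E12.5 and Nup62cl at 6.99 ± 0.25 at E11.5 and 5.17 ± 0.08 at E12.5, and no immediate early gene of 31 differed between the sexes in its step. Of all genes, 1.33% differed between the sexes in their step. Tgm3 and Ptgs2 fell in both sexes and more in XY, with differences of steps of 1.04 and 1.25. Sel1l3 fell in XX and was 8.38 ± 0.21 at E11.5 and 8.23 ± 0.56 at E12.5 in XY (difference of steps -1.43, SE 0.27, adjusted p = 0.00036). The E12.5 mean of Cyp11a1 was lower in XX (5.72 ± 0.04) than in XY (6.01 ± 0.77), and its steps were not called different (difference of steps -1.26, SE 0.39, adjusted p = 0.12).

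**Figure D4:**
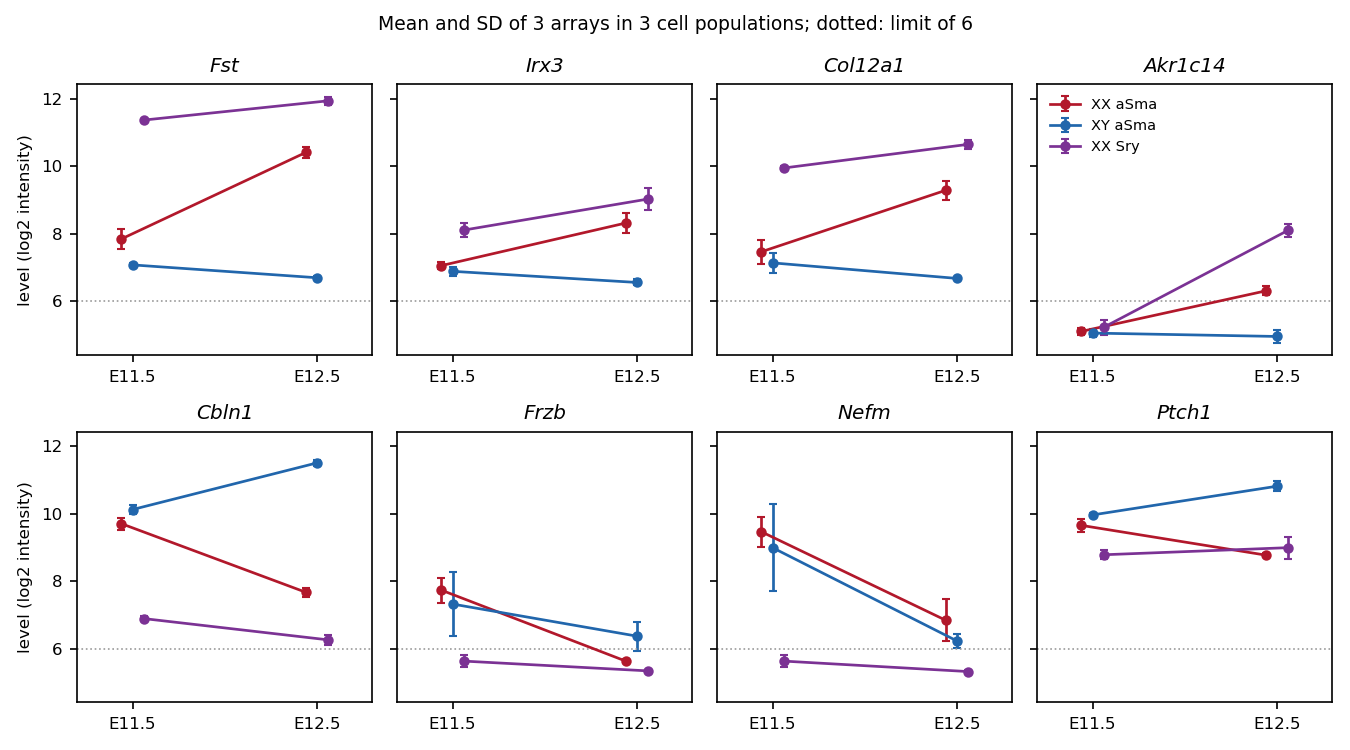
Mean and SD of log2 intensity over 3 arrays at E11.5 and E12.5 for 8 genes in XX aSma-EYFP (red), XY aSma-EYFP (blue) and XX Sry-EGFP cells (purple), with the limit of 6 dotted. The XX aSma-EYFP mean ends far from the XY mean for Fst (10.41 against 6.70 at E12.5) and Cbln1 (7.67 against 11.50).

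Set against XX Sry-EGFP supporting cells, 233 of 14292 genes differed in their step (1.63%), 102 rising more in aSma-EYFP cells (0.714%) and 131 in supporting cells (0.917%). Without replicate 3 of E11.5, these counts of differing genes were 59 in place of 102 and 67 in place of 131. Of the 136 risen genes 68 also rose in supporting cells (50.0%, against 4.94% of all genes), and of the 197 fallen genes 66 also fell (33.5%, against 2.99%). Fst rose by 2.57 in aSma-EYFP cells from well below the supporting cells, where it stood at 11.37 ± 0.04 at E11.5 and 11.94 ± 0.12 at E12.5 (difference of steps 2.00, SE 0.29, adjusted p = 5.7e-06), and remained below them at E12.5. Egfl6, Ano1, Cntn4 and Akr1c14 rose in both populations and more in supporting cells (-1.63, -0.75, -1.08 and -1.66). Cst12 and Muc16 rose in aSma-EYFP cells and stood at 6.25 ± 0.46 at E11.5 and 6.58 ± 1.05 at E12.5 and at 6.15 ± 0.96 at E11.5 and 5.61 ± 0.40 at E12.5 in supporting cells. Their differences of steps lost the call under 8 and 5 of the alternatives tried.

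Falls divided between the populations in the same way. Cyp11a1 fell in supporting cells too, to 5.86 ± 0.33 from 7.86 ± 0.69 (difference of steps -0.12, SE 0.39, adjusted p = 0.98), as did Il15, Sel1l3 and Nup62cl (7.72, 8.87 and 7.70 at E11.5 and 5.82, 7.16 and 5.88 at E12.5). Nefm and Frzb were below the limit in supporting cells at both stages, and Cbln1 and Hapln1 fell more in aSma-EYFP cells (-1.41 and -1.12). Of 39 mitosis genes 6 (Cenpe, Spc25, Kif20b, Top2a, Birc5 and Mki67) had positive differences of 0.71 to 1.51, against 0.714% of all genes. In aSma-EYFP cells Mki67 stood at 9.59 and 9.73, and in supporting cells at 7.22 and 6.53. Egr1, Egr2, Ier2 and Gadd45b of the immediate early list had negative differences (-1.22, -2.02, -1.54 and -0.92). These were not all falls in aSma-EYFP cells. Egr2 stood at 11.34 and 11.22 there, and at 7.95 and 9.86 in supporting cells. Gadd45b stood at 7.53 and 6.66 in aSma-EYFP cells, and at 6.46 and 6.51 in supporting cells. Id2 and Id3, targets of BMP signals, had -1.95 and -1.86, with means that went up in supporting cells (7.47 to 8.68 and 7.89 to 9.35). In aSma-EYFP cells the 2 genes went from 10.46 to 9.72 and from 9.66 to 9.26. Robo1 had 1.60, falling in both populations.

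**Figure D5:**
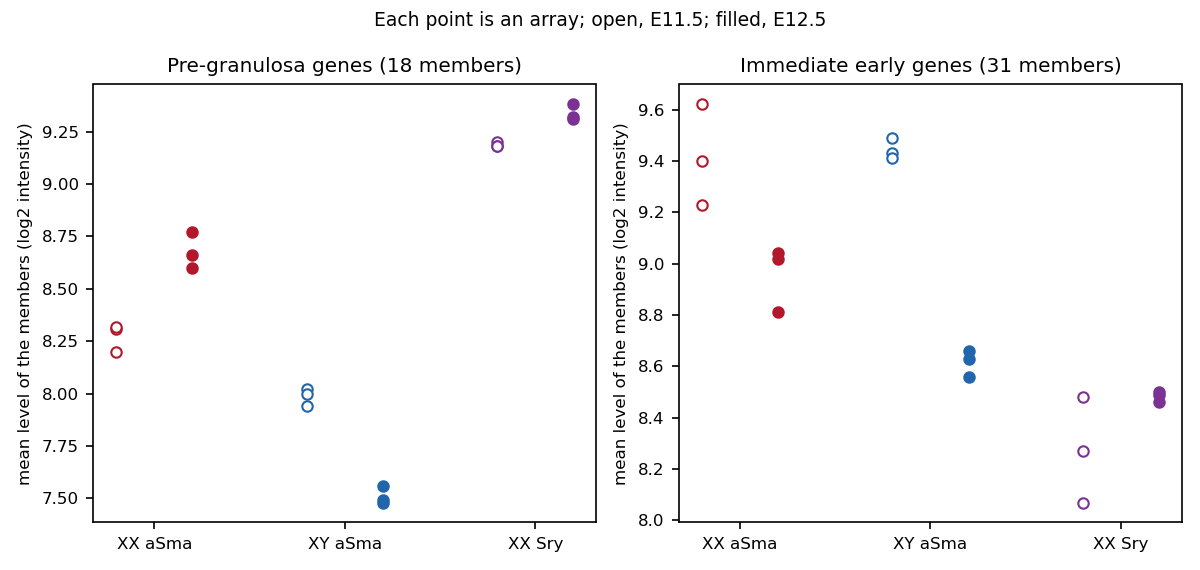
Mean log2 intensity of the 18 pre-granulosa genes (left) and the 31 immediate early genes (right) on each array at E11.5 (open) and E12.5 (filled) in the 3 populations. In XX aSma-EYFP cells the pre-granulosa mean moves from 8.20 to 8.32 up to 8.60 to 8.77, and the immediate early mean from 9.23 to 9.62 down to 8.81 to 9.04. The stages do not overlap, which also holds for lists without a called gene, such as germ cells (6.72 to 6.81 and 6.82 to 7.03).

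Across all 13769 genes the XX aSma-EYFP step correlated with the steps of XX Sry-EGFP and XY aSma-EYFP cells at r = 0.42 and 0.40, a description across genes, which are not independent. The mean levels of XX aSma-EYFP cells lay closer to those of XY aSma-EYFP cells (r = 0.994 at E11.5 and 0.980 at E12.5) than to those of XX supporting cells (0.939 and 0.949). At E13.5, with arrays of their own but in a step that shares the E12.5 arrays, Fst stood at 10.18 ± 0.14, Irx3 at 8.36 ± 0.13 and Col12a1 at 9.01 ± 0.02, near their E12.5 levels. Lgr5 (9.27 ± 0.13), Cst12 (10.09 ± 0.27) and Gatm (10.50 ± 0.06) had higher means and Nefm (5.83 ± 0.12) a lower one, but their step from E12.5 to E13.5 did not pass (adjusted p = 0.071, 0.16, 0.12 and 0.56). Ptgs2 (6.53 ± 0.02) and Tgm3 (7.13 ± 0.30) fell further (adjusted p = 3e-06 and 0.00024).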

How the data were processed

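RNA of cells sorted from pooled fetal mouse gonads was amplified with the Nugen WT-Ovation Pico system and hybridised to Affymetrix Mouse Gene 1.0 ST arrays, scanned with GCOS. The deposited values are log2 intensities that the authors made in Partek Genomics Suite by RMA with quantile normalization, a correction of probes for GC content and sequence, and median polish. All 91 arrays were processed together for the aSma-EYFP analysis, and the genome build is not given in the sources used here. The values were not normalized again; array medians ran from 6.555 to 6.811. Replicates are separate pools by their labels, and the number of arrays limits the precision.

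A linear model in limma 3.58.1 (R 4.3.3) gave 1 mean to each of 30 groups of 3 arrays (90 arrays; the newborn whole-mouse array was left out). It was fitted to the 16859 single-gene clusters with log2 of 6 or more on 2 of 3 arrays of some group, with p-values adjusted over all of them by Benjamini-Hochberg. A gene was read from its brightest cluster over the 90 arrays. Of 763 genes with several clusters, 8 had some called and others not, and 0 were called in opposite directions. Names came from the platform annotation: 23410 of 35557 clusters were listed, 1621 with several genes. Differences of steps were contrasts of contrasts. Named genes were the 12 largest changes a direction without overlap (predicted genes and small RNAs left out), up to 4 of each of 39 lists by p, 5 a direction of each difference of steps reported, and fixed identity genes; further called members of the lists are named to complete a count. The lists, members and tests were chosen with earlier results of these data known.

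The steroid and adrenal lists share Mc2r, and the immediate early list shares genes with the nuclear receptor, G1 and cell cycle inhibitor lists. Tested on simulated data, the fit of the XX aSma-EYFP step recovered 69% of 100 clusters changed 1.5-fold and 94% of 100 changed 2-fold among 16859. Same-numbered arrays of the titles deviated together weakly (correlations of deviations 0.122, 0.128 and 0.177, against -0.135 to 0.028 for differently numbered arrays). The main fit did not pair the arrays, and the replicate number entered as a block only in an alternative fit. What a number stands for is not given in the labels. Alternatives tried were fewer arrays in the fit, median centring, a second quantile normalization, a limit of 7 or none, adjustment over the step's clusters alone, the methods' limits (unadjusted p below 0.05 and 1.5-fold), an intensity trend with robust variance, any cluster of a gene, the replicate block, and leaving out each array. Some planned comparisons are not reported here.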

Additional observations from a re-analysis of the deposited data

Results flagged for a closer look

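Among the genes named by rule, those whose E11.5 to E12.5 step in XX aSma-EYFP cells differed from the step of another population in limma are given with the difference of steps on the log2 scale; no explanation of them was tested.

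Against XY aSma-EYFP cells, the step was more positive in XX for Akr1c14 (1.31), Ano1 (1.34), Calb1 (2.70), Cdh6 (0.92), Cntn4 (1.60), Col12a1 (2.28), Cst12 (2.23), Egfl6 (1.99), Fst (2.94), Igfbp2 (1.01), Irx3 (1.59), Lgr5 (1.69), Lrrn1 (2.09), Myh11 (0.70), Ptgs2 (1.25), Sry (3.40) and Tgm3 (1.04). It was more negative in XX for Cbln1 (-3.41), Defb19 (-2.87), Enpep (-2.90), Hhip (-2.50), Hsd17b3 (-4.11), Mcm10 (-0.68), Ptch1 (-1.74), Robo1 (-0.89) and Sel1l3 (-1.43).

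Against XX Sry-EGFP supporting cells, the step was more positive in aSma-EYFP cells for AW551984 (2.15), Calb1 (1.82), Cdh9 (2.24), Col12a1 (1.13), Cst12 (2.15), Fst (2.00), Idi1 (1.28), Lhx2 (0.62), Muc16 (2.18), Myocd (0.62), Pappa2 (0.69), Pf4 (2.39) and Robo1 (1.60). It was more negative for Adamts19 (-1.50), Akr1c14 (-1.66), Ano1 (-0.75), Bmp4 (-0.96), Cbln1 (-1.41), Cdh18 (-2.14), Cntn4 (-1.08), Egfl6 (-1.63), Egr2 (-2.02), Frzb (-1.81), Gadd45a (-0.94), Gadd45b (-0.92), Hapln1 (-1.12), Ldb2 (-2.24), Nefm (-2.31), Ptch1 (-1.09), Thbs2 (-1.02) and U90926 (-2.44).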

How the results depend on the processing

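No named gene changed direction with a call on either side of it. Of the 78 named genes called in the step, 45 stayed called under every alternative run and 33 lost the call under at least 1, most often without replicate 3 of E11.5 (23 genes) and with the 6 arrays alone (18). Of the 20 named differences of steps 14 stayed called throughout, and 5 of the 20 did not pass with the 12 compared arrays alone. The Cst12 difference lost its call under 8 alternatives against XX Sry-EGFP cells and under 5 against XY aSma-EYFP cells. The count of risen genes in the step was 136 (261 with the 18 aSma-EYFP arrays alone, 207 with the 6 arrays alone, 87 to 114 with 1 array left out), and that of fallen genes 197 (97 to 180 with 1 array left out). Of genes rising more in XX than in XY there were 108 (163 with the 18 arrays, 171 with the 12 compared arrays, 273 under the methods' limits, 74 to 103 with 1 array left out), and rising more in XY 78 (214 under the methods' limits, 54 to 72). Against the XX Sry-EGFP step, 102 rose more in aSma-EYFP cells (46 with the 12 arrays, 248 under the methods' limits, 59 to 96) and 131 in Sry-EGFP cells (79, 405 and 67 to 139). The cause of these moves was not tested, beyond fewer arrays in a fit. With the replicate number as a block 141 genes rose and 203 fell in the step, and the block changed no call of a named gene and no count of a comparison by over 1.5 times. In the lists it brought the risen collagens, other matrix proteins and WNT genes from 1, 2 and 1 to 2, 3 and 2. No scaling moved the median of all clusters by over 0.1. Levels near 6 lie below every array median (6.555 to 6.811), so folds from there may be compressed.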
